A study of Mus musculus with 12 samples.

Results

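ATF6a knockout and wild type mouse embryonic fibroblasts were compared after 12 h of tunicamycin, on 2 miRNA arrays of each genotype out of 12 arrays in the series. The arrays were chosen by their labels alone, and every mouse miRNA on them was considered, 611 in all. The series holds 6 groups of 2 single-colour arrays, and the labels describe each pair as independent experiments. Its design text asks which miRNAs respond to 12 h of tunicamycin in a way that depends on ATF6a.

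The knockout group (ATF6aKO, strain background C57BL/6) received 2 ug/mL tunicamycin for 12 h, and the wild type group (ATF6aWT, strain background C57BL/6) received the same dose for the same time. The other groups used here were both genotypes after 24 h of that dose and both genotypes left untreated. All were fibroblasts in culture. The labels do not give the number of embryos or cell lines behind each genotype, so p-values measure the spread between these arrays and not between animals.

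ATF6a is a transcription factor held in the membrane of the endoplasmic reticulum. When unfolded proteins accumulate there, it moves to the Golgi apparatus, is cleaved, and its free part enters the nucleus to induce chaperone and protein degradation genes. Tunicamycin blocks N-linked glycosylation and so triggers this unfolded protein response, which also runs through the sensors PERK and IRE1. A mature miRNA guides silencing complexes to target mRNAs mainly through its seed, bases 2 to 8 from the 5′ end, so miRNAs that share a seed tend to share targets.

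The mature sequences below are those of called miRNAs with a close relative, each shown 5′ to 3′ with the seed in capitals and beside that relative, which did or did not move with it. They were taken from RefSeq on GRCm38.p6, in which 19 of 21 names looked up had an entry, all but miR-23b and miR-378. The first pairs are miRNAs of the Hox gene clusters, followed by the miR-27 pair.
miR-10a: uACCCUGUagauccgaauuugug
miR-10b: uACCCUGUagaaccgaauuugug
miR-196a: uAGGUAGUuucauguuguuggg
miR-196b: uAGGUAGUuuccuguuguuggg
miR-27b: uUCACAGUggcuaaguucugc
miR-27a: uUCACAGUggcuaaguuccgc

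miR-10b and miR-10a differed at 1 of 23 bases, position 12 from the 5′ end, outside the seed. miR-196b and miR-196a likewise differed at 1 of 22 bases, at position 12, and miR-27b and miR-27a at 1 of 21 bases, at position 19. The Mir10a gene (chr11:96317186-96317208 for the mature arm, plus strand) lies within Hoxb3, and Mir10b (chr2:74726074-74726096, plus strand) within the overlapping Hoxd3 and Hoxd4 genes. miR-196a comes from a pair of genes, Mir196a-1 beside Hoxb9 (chr11:96265187-96265208, plus strand) and Mir196a-2 beside Hoxc10 (chr15:102973365-102973386, plus strand). Mir196b stands nearest to Hoxa10 (chr6:52230129-52230150, minus strand). Mir27b (chr13:63300760-63300780, plus strand) lies within Aopep.

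The other sequences shown belong to miR-322 and the miR-15/16 family, and to the miR-183 cluster and miR-130 family. In the miR-183 cluster both members shown were called lower, while miR-322 and miR-130b are shown beside relatives of the same seed that were not called.
miR-322: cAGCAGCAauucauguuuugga
miR-15b: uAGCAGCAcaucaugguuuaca
miR-16: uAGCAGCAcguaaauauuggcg
miR-183: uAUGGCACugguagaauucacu
miR-96: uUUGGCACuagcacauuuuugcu
miR-130b: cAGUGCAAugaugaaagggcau
miR-130a: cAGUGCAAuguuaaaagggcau

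miR-322 has the same seed as miR-15b and miR-16, and differed from miR-15b at 6 of 22 bases. miR-183 and miR-96 differed within the seed, at position 2, and in 9 of 22 bases in all. Their genes lie side by side (chr6:30169711-30169732 and chr6:30169506-30169528, both on the minus strand), nearest to Nrf1. miR-130b and miR-130a differed at 2 of 22 bases.

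On the 12 h arrays, 129 and 112 miRNAs were well above background in knockout cells and 137 and 144 in wild type cells, by the scanner software's own flag. Replicate 1 of both genotypes was scanned in run 3 and replicate 2 in run 4, so genotype can be compared within each run. All knockout arrays had row position 2 and all wild type arrays row position 1 on their slide, and the effects of genotype and of position cannot be told apart. No probe measures the ATF6a transcript, and the genotype labels were therefore not checked against it. Of 12 fibroblast or mesenchymal markers, 9 and 8 were well above background on the knockout arrays and 10 and 8 on the wild type arrays. Their summed scaled signal was 21.2 and 14.2 in knockout cells and 15.8 and 16.2 in wild type cells. Most of each sum came from miR-21, so the sums say little about the other markers. Of 37 markers of muscle, epithelium, blood, nerve, liver and embryonic stem cells, none was well above background in run 3 in either genotype. In run 4, 3 were on the knockout array and 4 on the wild type array, among them miR-206 and miR-294, and the part of these in the results was not tested.

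Levels are given as log2 of the processed signal after division by each array's 75th percentile, taken over the 87 probes that every one of the 12 arrays flagged as well above background. Values under -5.02 on this scale were raised to it, a level called the floor. Differences are knockout minus wild type ± SE with n = 2 arrays each, so the number of arrays limits their precision. They come from limma fitted to all 6 groups, with a call at a Benjamini-Hochberg adjusted p below 0.05. Of the 611 mouse miRNAs, 174 were bright enough to test, together with 1 viral probe set. The other 437 were not tested, and 421 of the 611 were well above background on none of the 4 arrays. The term measured is used for a miRNA that all 4 arrays flagged as well above background and whose used probes all stayed clear of the floor, which held for 60.

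After 12 h of tunicamycin, 13 of 175 miRNAs differed between knockout and wild type cells (7.43% called). The 6 that were higher in the knockout (3.43%) were miR-23b, miR-27b, miR-130b, miR-10b, miR-378 and miR-34a. The 7 that were lower (4.0%) were miR-10a, miR-196a, miR-322, miR-196b, miR-183, miR-96 and miR-155. In all 13, both knockout arrays lay beyond both wild type arrays. This held for 46 of 175 miRNAs (26.3%), 12 of them higher (6.86%) and 34 lower (19.4%). Selecting calls on these arrays favours such a gap, so the gap adds no support to the calls. miR-23b and miR-34a were measured on all 4 arrays, and 9 of the 13 had a used probe at the floor on at least 1 array, where the spread is too small and so is the p-value. At an unadjusted p under 0.05, 32 miRNAs passed.

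**Figure D1:**
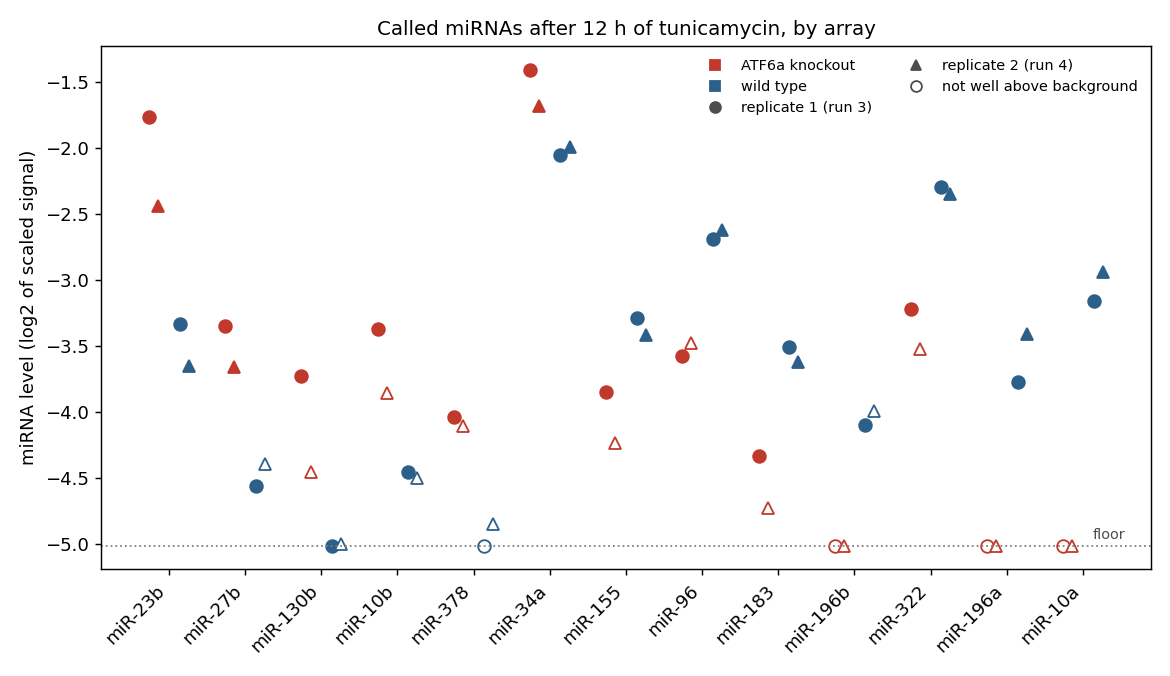
Levels of the 13 called miRNAs on each array, as log2 of the scaled signal, with knockout arrays in red left of wild type arrays in blue, circles for replicate 1 and triangles for replicate 2. Open symbols mark arrays on which no probe of the miRNA was well above background and the dotted line marks the floor at -5.02; miR-10a, miR-196a and miR-196b lay on the floor in both knockout replicates.

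The calls rest on the fit and the scaling, and no miRNA passed when the 4 compared arrays were fitted alone. In limma the count was 4 when the 4 tunicamycin groups were fitted alone (miR-10a, miR-196b, miR-378 and miR-96) and 0 when arrays were scaled on all probes, quantile normalized, background-corrected with normexp or summarised by the scanner software's summed signal. At an unadjusted p under 0.05 these gave 0, 2, 3 and 12 miRNAs, in that order. Without single arrays the count was 35 without knockout replicate 1, 23 without knockout replicate 2, 10 without wild type replicate 1 and 6 without wild type replicate 2. Without wild type replicate 2 the calls lost were miR-23b, miR-27b, miR-10b, miR-130b, miR-34a, miR-196a and miR-155 (limma, adjusted p between 0.0555 and 0.126). Without wild type replicate 1, miR-27b, miR-10b, miR-130b, miR-34a and miR-155 were lost (limma, adjusted p between 0.096 and 0.142), and without knockout replicate 2, miR-155 (limma, adjusted p = 0.0694). miR-10a, miR-322, miR-196b, miR-183, miR-96 and miR-378 passed without each array in turn. Each of these fits leaves 1 genotype with a single array, which is assumed to vary like the other groups, so passing is weak evidence of stability.

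miR-23b showed the largest difference among the measured miRNAs. Its level was -1.76 and -2.44 in knockout cells, against -3.34 and -3.65 in wild type cells. Both knockout arrays were high and both wild type arrays low, with a gap wider than the distance between replicates of either genotype. The difference was 1.39 ± 0.21, or 2.63-fold (limma, adjusted p = 0.00666). Before scaling, the mean intensity of its 2 used probes was 179 and 129 in knockout cells and 70.7 and 32.6 in wild type cells, so the order of the genotypes did not come from the scaling. Its probes differed by 1.38 and 1.40, and the difference was 1.58 in run 3 and 1.21 in run 4. Across 20 alternative settings it stayed above 0, between 0.53 and 1.85, but kept its call in 9 of them and lost it in 11, among them the fit of the tunicamycin groups alone (limma, adjusted p = 0.085).

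miR-27b, encoded with miR-23b and a copy of miR-24 in 1 cluster, was also higher. It lay at -3.35 and -3.66 in knockout cells and at -4.56 and -4.40 in wild type cells. The groups were apart, but wild type replicate 2 was not well above background and 2 arrays had a used probe at the floor. The difference was 0.98 ± 0.18 (limma, adjusted p = 0.0164), and it stayed above 0 in the 19 alternatives that gave a value, between 0.38 and 1.86.

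The relatives from the second cluster, miR-23a and miR-27a, did not pass. miR-23a lay at 0.22 and -0.19 in knockout cells and at 0.21 and 0.14 in wild type cells, with a difference of -0.16 ± 0.17. miR-27a lay at 0.50 and -0.24 in knockout cells and at 0.15 and 0.26 in wild type cells, with a difference of -0.08 ± 0.23. In both, the knockout values spanned the wild type ones or overlapped with them. miR-24, which both clusters encode, differed by 0.07 ± 0.27. Over the 7 tested members of the miR-23/27/24 clusters the median difference was 0, against -0.01 over all 175 miRNAs, and it was 0.30 without knockout replicate 2. Of these 7, miR-23b and miR-27b passed, beside 7.43% over all miRNAs.

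The array held 8 miRNAs of the Hox gene clusters, which act on Hox and other developmental mRNAs. Of these, 4 could be tested and all 4 passed, 1 higher and 3 lower, beside 3.43% higher and 4.0% lower over all 175 miRNAs. miR-10a, miR-196a and miR-196b were well above background on neither knockout array, and entered the test through groups in which they were brighter. miR-10a and miR-196a were well above background on both wild type 12 h arrays, so the compared values could themselves admit them. The share that passed therefore depends on the filter. With no filter on dim probes, miR-10a alone of the 4 kept its call. miR-10a was at the floor on each knockout array and at -3.16 and -2.94 in wild type cells. The processed intensity of its 2 used probes averaged 6.79 and -0.568 in knockout cells and 75.8 and 47.2 in wild type cells, so no signal was seen in either knockout array. Since the knockout arrays give only a limit, miR-10a was at least 1.74-fold lower in knockout cells, the fold of the wild type mean over the lowest signal well above background on the knockout arrays (limma, adjusted p = 0.000243, a fitted difference of -1.97 ± 0.14). The limit was 3.01-fold in run 3 and 1.00-fold in run 4, where the lowest signal well above background was higher.

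miR-10b, 1 base away, stood the other way. Its level was -3.38 and -3.86 in knockout cells and -4.45 and -4.50 in wild type cells. The groups did not overlap, and 1 array of each genotype was well above background. The difference was 0.86 ± 0.17 (limma, adjusted p = 0.0263), but the summed signal gave -0.55 and the deposited table -0.15. The miR-10a probes thus lay at the floor on the same knockout arrays on which miR-10b was at its highest.

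miR-196a and miR-196b were not well above background on either knockout array, where both lay at the floor. miR-196a was at -3.77 and -3.41 in wild type cells, a fitted difference of -1.43 ± 0.24 (limma, adjusted p = 0.0127). Its fold was at least 1.19 lower in knockout cells, a limit that is not strict because in run 4 the lowest signal well above background on the knockout array exceeded its wild type level. miR-196b was at -4.10 and -4.00 in wild type cells, with 1 used probe and a fitted difference of -0.97 ± 0.11 (limma, adjusted p = 0.00204), and no fold could be given over both runs. In run 3 alone the limits were 1.97-fold for miR-196a and 1.57-fold for miR-196b. The list's median of -1.20, limited by the floor, kept its sign in the 19 alternatives that gave a value and ranged between -3.55 and -0.15.

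miR-96 and miR-183, neighbours in a cluster best known from sensory cells, were lower in knockout cells. miR-96 lay at -3.58 and -3.48 in knockout cells and at -2.69 and -2.63 in wild type cells. After scaling, the replicates of each genotype lay within 0.1 of each other. Before scaling, its intensity was 44.0 in knockout and 99.3 in wild type cells in run 3. In run 4 it was 52.8 and 58.0, so the size of the gap in run 4 depends on the scaling. The difference was -0.87 ± 0.10 (limma, adjusted p = 0.00204) and its sign turned in the summed signal (0.39) and the deposited table (0.79). miR-183 lay at -4.34 and -4.73 in knockout cells and at -3.51 and -3.62 in wild type cells, again without overlap. Its difference was -0.96 ± 0.14 (limma, adjusted p = 0.00626), and it kept its sign in the 19 alternatives that gave a value. The third member, miR-182, was at the floor in both knockout replicates and at -4.47 and -4.67 in wild type cells, and did not pass (limma, adjusted p = 0.0669). The knockout arrays of replicate 2 were not well above background for miR-96 or miR-183, and the median over the 3 miRNAs, -0.87, turned to 0.17 in the deposited table.

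miR-322, the mouse counterpart of human miR-424 and linked to cell cycle arrest in muscle differentiation, was lower. It lay at -3.22 and -3.52 in knockout cells, against -2.30 and -2.35 in wild type cells. Both knockout arrays were low, although replicate 2 was not well above background. Before scaling, its intensity was 52.8 in knockout and 117 in wild type cells in run 3. In run 4 it was 53.0 and 67.2, so the size of the gap in run 4 depends on the scaling. The difference was -1.05 ± 0.14 (limma, adjusted p = 0.00362), and it turned to 0.20 in the deposited table.

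The miRNAs with the miR-322 seed did not follow it. miR-15b, a family member from a cluster within Smc4, lay at -0.66 and -0.90 in knockout cells and at -1.27 and -1.15 in wild type cells. Both knockout arrays lay above both wild type arrays, the opposite side to miR-322, with a difference of 0.43 ± 0.11 that just missed the threshold (limma, adjusted p = 0.0519). miR-15a at 0.25 ± 0.27 and miR-16 at 0.20 ± 0.17 overlapped between genotypes. Of 6 tested members of the list of miR-15, miR-16, miR-322 and their cluster partners, 5 had differences above 0 and miR-322 alone was below it, and the list's median was 0.29. When arrays were scaled on all probes that median was 0 and miR-15a turned to -0.03; without knockout replicate 1, miR-15a turned to -0.18 and miR-16 to -0.10.

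miR-34a, which p53 induces, was the other call measured on all 4 arrays. Its level was -1.41 and -1.69 in knockout cells, against -2.06 and -1.99 in wild type cells. The wild type arrays nearly coincided and both knockout arrays lay above them. The difference was 0.48 ± 0.10, or 1.39-fold (limma, adjusted p = 0.0355), with 0.65 in run 3 and 0.31 in run 4. It stayed above 0 in 20 alternatives, between 0.17 and 0.67, but passed the threshold in only 4 of them. Its relative miR-34c lay at -2.43 and -3.25 in knockout cells and at -2.66 and -2.49 in wild type cells, overlapping, with a difference of -0.27 ± 0.24.

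miR-130b, of a seed family that also holds miR-130a and miR-301a, lay at -3.73 and -4.45 in knockout cells and at or next to the floor, at -5.02 and -5.00, in wild type cells. Both knockout arrays were above both wild type arrays, but replicate 2 of each genotype was not well above background. A used probe lay at the floor on 3 arrays. The difference was 0.92 ± 0.21 (limma, adjusted p = 0.0379; 0.0511 with the scanning run as a replicate block), and it turned negative for the summed signal (-1.43) and the deposited table (-2.96). miR-130a at -0.13 ± 0.19 and miR-301a at 0.31 ± 0.16 did not pass.

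miR-378, known from energy metabolism, was well above background on 1 knockout array and on neither wild type array. It lay at -4.04 and -4.11 in knockout cells, against -5.02 and -4.85 in wild type cells. The difference was 0.86 ± 0.11 (limma, adjusted p = 0.00304), at least 1.20-fold higher in knockout cells by the same rule as for miR-10a, a limit that is not strict in run 4. Its sign turned under the summed signal, to -0.26, and the deposited table, to -0.62. miR-155, known from immune activation, lay at -3.85 and -4.24 in knockout cells and at -3.29 and -3.42 in wild type cells. Both knockout arrays were lower, but replicate 2 was not well above background and 2 arrays had a used probe at the floor. The difference of -0.69 ± 0.15 (limma, adjusted p = 0.0355) turned to 0.37 in the deposited table.

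Among the 60 measured miRNAs, 9 had genotypes that did not overlap (15%), and 7 of these were not called. Besides miR-15b, miR-29b was higher in the knockout, at -0.14 and -0.44 in knockout cells against -0.61 and -0.46 in wild type cells. Its difference of 0.25 ± 0.14 was close to the spread of the knockout replicates. miR-140, known from cartilage, showed the largest negative difference of the measured miRNAs. It lay at -1.77 and -2.27 in knockout cells and at -1.60 and -0.83 in wild type cells, so the wild type arrays stood nearly as far apart as the group means. The difference of -0.81 ± 0.29 did not pass (limma, adjusted p = 0.164), being -0.18 in run 3 and -1.44 in run 4.

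The arm opposite miR-140, miR-140*, lay at -3.74 and -4.29 in knockout cells and at -3.0 and -3.41 in wild type cells. Its difference of -0.81 ± 0.23 had adjusted p = 0.0684 (limma) and 0.00744 with the scanning run as a replicate block. let-7e at -0.47 ± 0.22, miR-214 at -0.40 ± 0.19, miR-31 at -0.38 ± 0.16 and let-7b at -0.16 ± 0.14 were lower on both knockout arrays without passing. miR-21, the brightest miRNA, lay at 4.0 and 3.43 in knockout cells and at 3.51 and 3.59 in wild type cells, and its difference of 0.16 ± 0.18 was within the spread of the replicates. It made up 28.1% and 20.8% of the summed scaled signal of the tested mouse miRNAs in knockout cells and 23.8% and 21.3% in wild type cells. The next brightest were miR-720, whose sequence is also that of a tRNA fragment, miR-125b-5p, miR-22 and miR-199a-3p. miR-720 lay at 1.78 and 1.19 in knockout cells and at 1.60 and 1.48 in wild type cells, miR-22 at 1.05 and 0.29 in knockout cells and at 0.71 and 0.61 in wild type cells, and miR-199a-3p at 0.61 and 0.14 in knockout cells and at 0.34 and 0.37 in wild type cells. In each of these the knockout arrays enclosed the wild type ones, and the differences of -0.06 ± 0.21, 0.01 ± 0.24 and 0.02 ± 0.14 were within the spread of the replicates.

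Of 27 miRNAs linked to the unfolded protein response, 19 were tested, with 1 higher (miR-34a) and 2 lower (miR-96 and miR-322) calls, beside 7.43% called over all 175 miRNAs. The median of these 19 was 0, with 9 differences above and 9 below 0, beside -0.01 over all 175, and it was -0.26 without knockout replicate 1 and 0.29 without knockout replicate 2. Among the miRNAs reported as IRE1 cleavage substrates, 3 of 4 were tested. miR-34a was higher, miR-96 lower, and miR-125b-5p lay at 1.19 and 0.64 in knockout cells and at 1.1 and 0.71 in wild type cells, a difference of 0.01 ± 0.24. The miRNAs of this list therefore did not differ in 1 direction.

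No member of the imprinted Dlk1-Dio3 cluster passed among 33 tested, yet the differences lay mostly on 1 side. Over all 175 miRNAs 88 differences were below 0 and 70 above. In the cluster they were below 0 in 27 members, above 0 in 1, and 0 in the remaining ones, which were at the floor throughout. The median was -0.26, with -0.25 in run 3 and -0.28 in run 4, and it kept its sign in 20 alternatives, between -0.43 and -0.02, with -0.17 without knockout replicate 2. In 14 members both knockout arrays lay below both wild type arrays, and in 0 above, beside 34 lower (19.4%) and 12 higher (6.86%) of all 175. Some members, such as miR-134 and miR-154*, were well above background on none of the 4 arrays and entered the test through other groups. In untreated cells the cluster's median difference was -0.81, so members could enter through wild type groups in which they were brighter. The counts on each side therefore depend on the filter. Of the members, 18 and 5 were well above background on the knockout arrays and 23 and 15 on the wild type arrays, and 2 were measured on all 4. One of these, miR-379, lay at -2.53 and -3.18 in knockout cells and at -2.79 and -2.23 in wild type cells, and its difference of -0.35 ± 0.25 changed sign between runs, 0.26 in run 3 and -0.96 in run 4.

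With the scanning run as a replicate block, 19 miRNAs passed (10.9%), 5 higher and 14 lower. These held 12 of the 13 calls, all but miR-130b. The added 7 were miR-125a-5p, miR-127, miR-140*, miR-300, miR-377, miR-541 and miR-99b, all lower in the knockout after scaling. Before scaling, the run 4 intensity of miR-125a-5p was 153 in knockout and 124 in wild type cells. miR-127 (42.8 and 37.9), miR-377 (44.8 and 40.4) and miR-99b (44.4 and 43.0) lay the same way, so their run 4 direction depends on the scaling. miR-140*, miR-300 and miR-541 were lower in the knockout in both runs before scaling too. miR-127, miR-300, miR-377 and miR-541 are Dlk1-Dio3 miRNAs, and miR-99b and miR-125a-5p are encoded together in another cluster. miR-377 lay at -3.74 and -3.67 in knockout cells and at -2.82 and -3.06 in wild type cells, a difference of -0.76 ± 0.19 (limma, adjusted p = 0.0519; 0.0394 with the block).

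**Figure D2:**
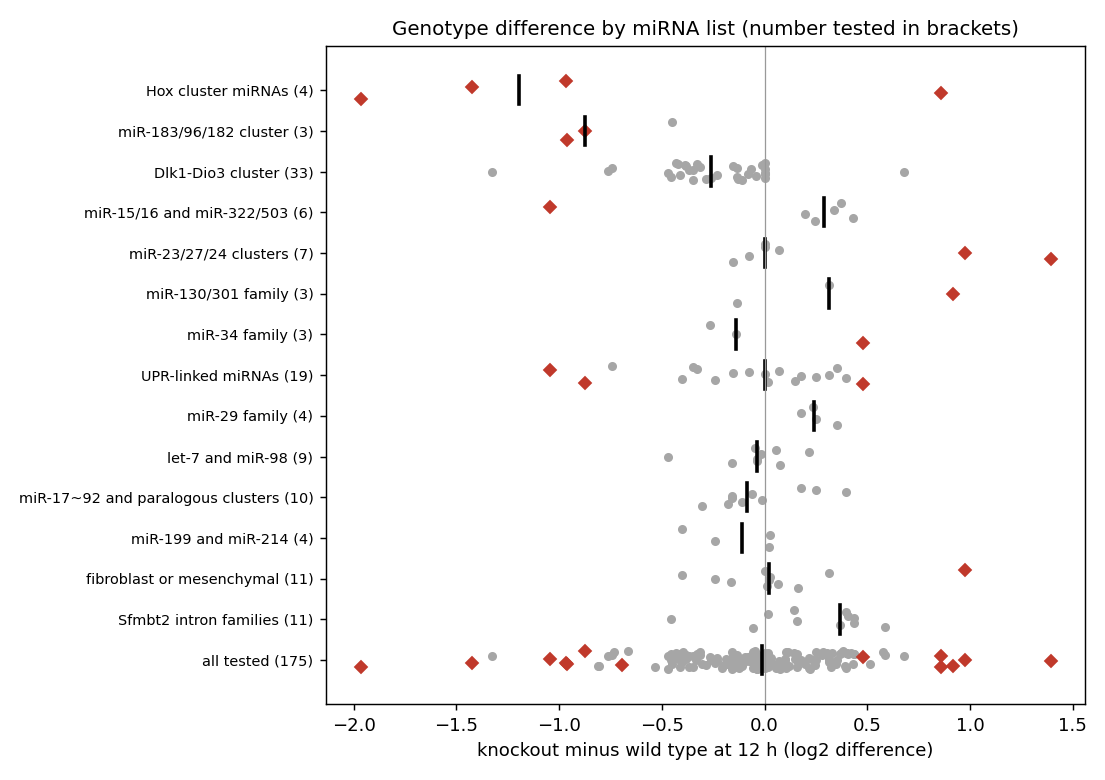
Genotype difference of each tested miRNA at 12 h, knockout minus wild type in log2 units, by list, with the number tested in brackets. Red diamonds are called miRNAs, grey points the others and black bars the medians; the medians of the Hox and miR-183 cluster lists lie left of 0, and the points at 0 in the Dlk1-Dio3 list are miRNAs at the floor on all 4 arrays.

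Several abundant families stayed close between genotypes by their medians. The 9 tested let-7 and miR-98 miRNAs had a median of -0.04 and 0 calls. The 10 tested miRNAs of miR-17~92 and its paralogous clusters, known for promoting proliferation, had a median of -0.08 and 0 calls. Both medians changed sign under alternatives, so neither gives a direction. In the miR-29 family, which targets collagen mRNAs, all 4 tested members had differences above 0, between 0.18 and 0.35, and none passed, and miR-29b turned to -0.02 when arrays were scaled on all probes. miR-29a, for example, lay at 0.74 and 0.05 in knockout cells and at 0.15 and -0.08 in wild type cells, a difference of 0.35 ± 0.21 with overlapping groups.

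The difference between genotypes was then read within each scanning run. In 89 of 175 miRNAs (50.9%) it had 1 sign in both runs, higher in 37 (21.1%) and lower in 52 (29.7%). Among the 60 measured miRNAs this was so in 31 (51.7%). All 13 called miRNAs kept their sign, from 1.58 and 1.21 for miR-23b to -1.86 and -2.08 for miR-10a, where miR-10a is limited by the floor. The calls were made on these same arrays, which favours 1 sign in both runs, so this is no replication of them. Across all 175 miRNAs the differences of both runs correlated with Pearson's r of 0.58, and with 0.50 over the 60 measured ones. These are correlations across miRNAs that share arrays and scaling and are not independent replicates. The median difference of the measured miRNAs was 0.22 in run 3 and -0.15 in run 4, so differences of that size change side with the run.

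**Figure D3:**
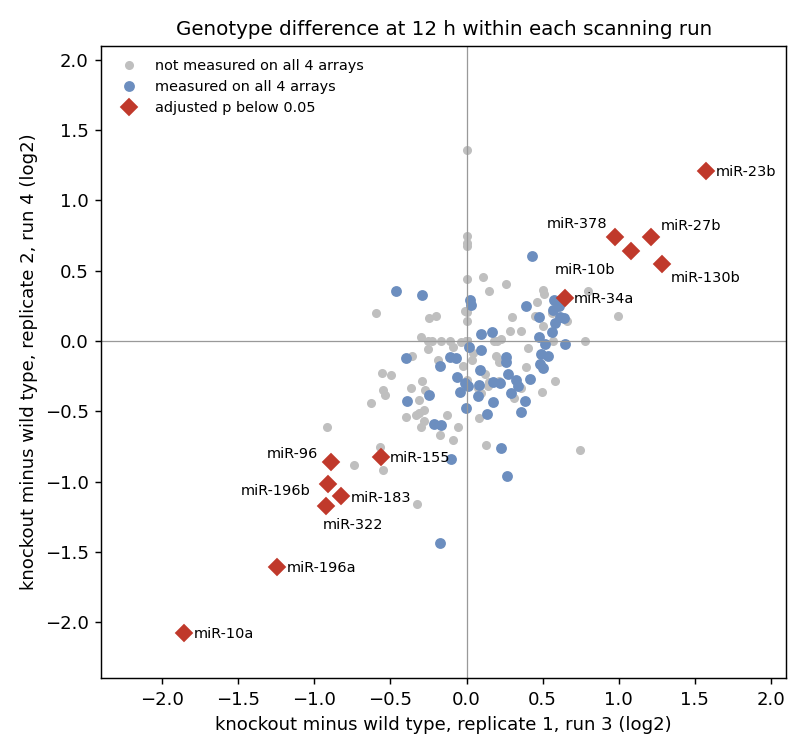
Knockout minus wild type in log2 units within replicate 1 (run 3, horizontal axis) and within replicate 2 (run 4, vertical axis), 1 point per tested miRNA. Red diamonds are the 13 called miRNAs, which lie at the upper right and lower left; blue points are measured on all 4 arrays and grey points are not.

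The replicates themselves differed far more on the 12 h arrays than on the untreated ones. Untreated arrays were on slide 1 in runs 1 and 2, and tunicamycin arrays on slide 2 in runs 3 and 4. Treatment therefore cannot be told apart from slide and run. Taken over miRNAs, the SD of replicate 2 minus replicate 1 was 1.19 in knockout and 1.12 in wild type cells at 12 h, and 0.21 in knockout and 0.20 in wild type cells left untreated. At 24 h this SD was 0.80 in knockout and 0.71 in wild type cells. The shared estimate of the spread draws on all of these groups, so the SE and p-value at 12 h can be too small. The change between runs was alike in the genotypes, with Pearson's r of 0.93 across 175 miRNAs on different arrays of the same runs. Repeat-rich miRNAs of the large cluster in an intron of Sfmbt2 changed strongly, and their 11 tested members had a median change between replicates of 3.57 in knockout and 3.37 in wild type cells. Over the other 164 miRNAs the SD at 12 h was 0.82 in knockout and 0.76 in wild type cells, and r was 0.86. The 11 made up 1.49% and 17.7% of the summed scaled signal in knockout replicates 1 and 2, and 1.47% and 13.6% in wild type replicates 1 and 2. Their median genotype difference of 0.37 turned to -1.49 without knockout replicate 2 and to -1.58 without wild type replicate 1, was 1.99 without knockout replicate 1 and 2.09 without wild type replicate 2, and none passed.

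**Figure D4:**
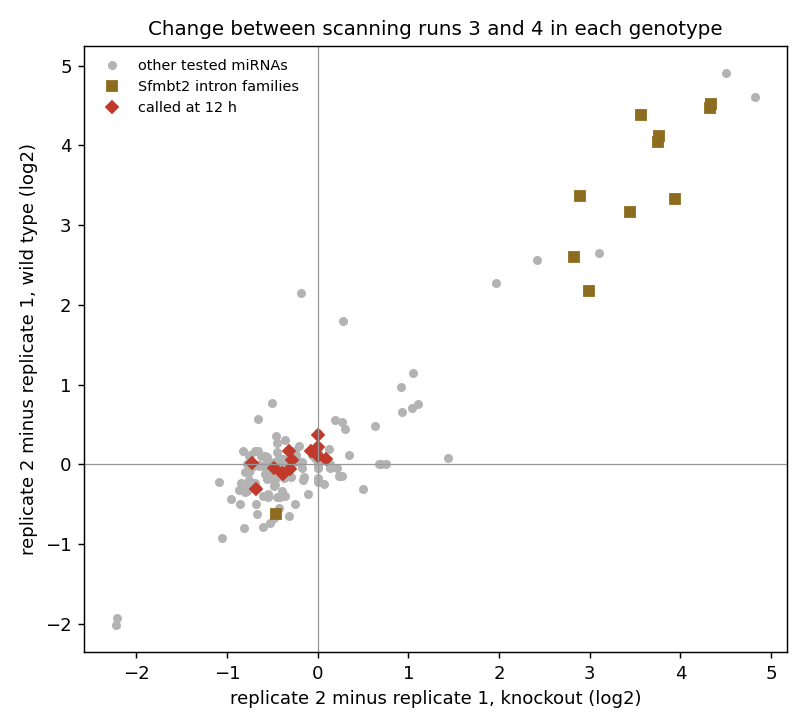
Change between replicates, replicate 2 (run 4) minus replicate 1 (run 3) in log2 units, in knockout cells (horizontal axis) and in wild type cells (vertical axis), 1 point per tested miRNA. Brown squares are miRNAs of the Sfmbt2 intron families, 10 of which lie at the upper right. Red diamonds are the 13 called miRNAs, which lie apart from those 10. A small change between replicates is part of what makes a call, and miR-10a, miR-196a and miR-196b lay on the floor in both knockout replicates.

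The 13 calls at 12 h were also read in the other conditions. The means there come from other arrays, but all conditions share the scaling, the choice of probes and the estimate of the spread. All 13 had the same sign in untreated cells and after 24 h, though miR-34a at 0.01 ± 0.10 gives no direction in untreated cells. The share of all 175 miRNAs with the same sign was not counted. Over all 175, the 12 h differences correlated with the untreated ones (Pearson's r of 0.54) and with those at 24 h (0.76). A shared sign is thus not particular to the calls. Of them, 9 were called in untreated cells, where 49 of 175 miRNAs passed (28.0%), and 10 at 24 h, where 17 passed (9.71%), with 8 called in all 3 conditions. miR-34a and miR-130b were called at 12 h alone. miR-34a differed by 0.01 in untreated cells and 0.40 at 24 h, and miR-130b by 0.21 in untreated cells and 0.60 at 24 h. A call in 1 condition does not show a difference between conditions, which was tested by itself.

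Set against the untreated genotype difference, none of the 13 passed in limma, the lowest adjusted p being 0.0976, for miR-23b, which differed by 0.41 in untreated cells, 1.39 at 12 h and 1.57 at 24 h. Against the 24 h difference the lowest adjusted p of the 13 was 1. Over all 175 miRNAs, 17 passed the test of the 12 h difference against the untreated one (9.71%), and 37 at an unadjusted p under 0.05. This test compares arrays of different slides and scanning runs. The 17 became 33 without knockout replicate 1, 34 without knockout replicate 2 and 10 without wild type replicate 2. Of these 17, 16 had a used probe at the floor on at least 1 of the 12 h arrays, 13 on all 4 of them. Where every used probe lay at the floor on all 4, the 12 h difference was 0 by construction. The test then only restated the untreated difference. Of the 17, 9 belonged to the Dlk1-Dio3 cluster. That cluster's median was -0.81 in untreated cells, -0.26 at 12 h and -0.21 at 24 h, and the floor limits how far it could be seen to differ after treatment. In limma 0 differed between 12 and 24 h (0.0%), with 4 at an unadjusted p under 0.05 and a lowest adjusted p of 0.475, and 8 differed without knockout replicate 1.

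**Figure D5:**
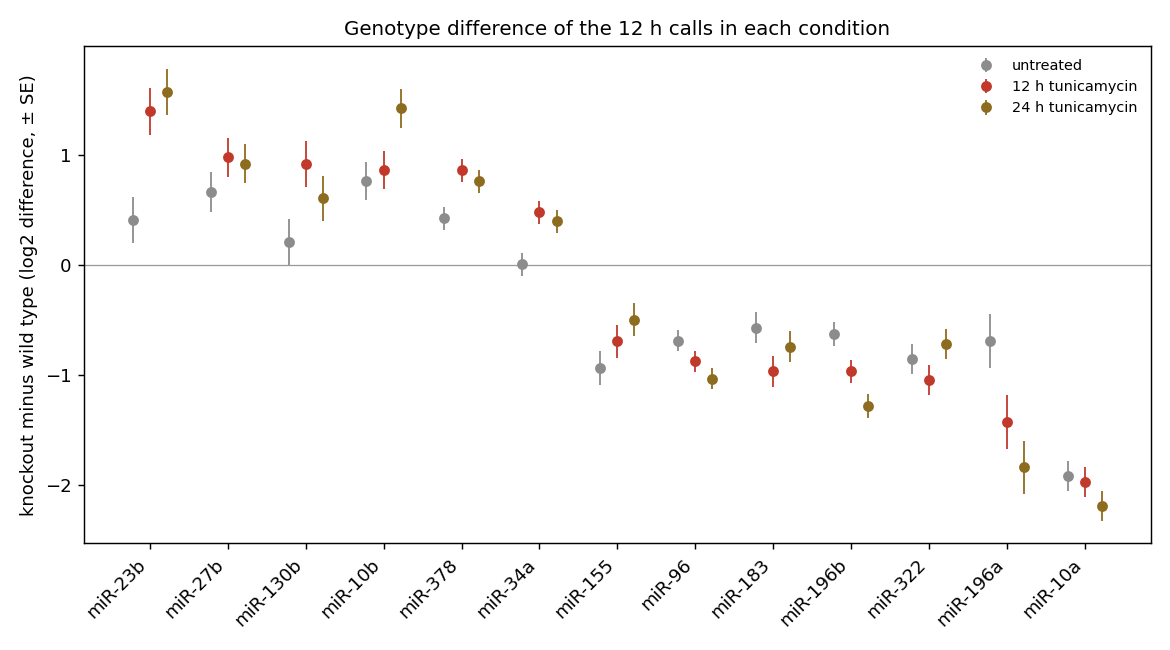
Genotype difference of the 13 miRNAs called at 12 h, knockout minus wild type in log2 units ± SE, in untreated cells (grey), after 12 h (red) and after 24 h (brown) of tunicamycin, n = 2 arrays per genotype and condition. Each estimate keeps its side of 0, though in untreated cells miR-34a lies at 0.01 ± 0.10 and miR-130b at 0.21 ± 0.21.

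Over the 175 miRNAs, the genotype differences at 12 and 24 h correlated with Pearson's r of 0.76, and with 0.77 over the 60 measured ones. The differences at 12 h and in untreated cells correlated with r of 0.54 and 0.35. The conditions share no array, but they share the row positions of the genotypes and, for 12 and 24 h, the slide and the scanning runs. By miRNA, miR-10b differed by 0.76, 0.86 and 1.42 in untreated cells, at 12 h and at 24 h, and miR-196a by -0.69, -1.43 and -1.84. miR-96 differed by -0.69, -0.87 and -1.03 over the same conditions. miR-322 differed by -0.85, -1.05 and -0.71, and miR-155 by -0.94, -0.69 and -0.50. None of these 5 passed the test of the 12 h difference against either other condition.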

How the data were processed

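Total RNA was labelled with Cy3, per the labels' protocols. The submitters' processing notes name Feature Extraction 10.7.1.1. It made the deposited spot intensities, from which local background and a spatial trend had been removed, without scaling across arrays, per the file headers. The authors' series table was deposited in log2 and equals the log2 summed signal of detected miRNAs to within 2e-06. File headers also gave each array's slide, position and scanning run.

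Control spots (715 of 13715) and outlier spots were left out, none of the spots was saturated, and 1857 probes of 650 miRNAs remained. A probe was used if any group had it well above background on both of its arrays, and a miRNA's value is their mean after scaling, floor (0.0309) and log2. limma 3.58.1 in R 4.3.3 (lmFit and eBayes) was fitted to 6 group means, with 6 residual and 1.16 prior degrees of freedom and Benjamini-Hochberg adjustment over 175. In 40 simulations of the 12 h comparison with 175 miRNAs it recovered 39% of changes of 0.5, 69.8% of 1 and 91% of 2 log2 units, with 1.08 false calls on average. These simulations held no floor and no runs. They also gave each miRNA the same spread in all groups, although replicates differed more at 12 h than in untreated cells. Recovery and false calls may therefore look too favourable.

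Where no array of a group was well above background, the limit set the brighter group's mean against the mean, per array, of the higher of the lowest such signal and the miRNA's own. Replicate numbers pair the 12 h arrays through the scanning run, and the replicates' changes correlated with r of 0.93 between genotypes across miRNAs, so the run served as a replicate block in an alternative. The naming rule picked 68 miRNAs: the called ones, measured ones without overlap (up to 10 per direction), the 5 brightest and measured list members. Of these, 36 are given by name and 32 list members by their list's counts and median alone, a choice made after their values were seen, as were the 8 tested miRNAs named outside the rule with their alternatives. The comparison, lists and rule were chosen with earlier results of these data known. Alternatives covered scaling, background correction, probe summary, source table, filter, floor, samples fitted, block and each array left out. Centring on the measured miRNAs was added after the data were seen. normexp used the median spot signal.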

Additional observations from a re-analysis of the deposited data

Results flagged for a closer look

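miR-129-3p stood out because its genotype difference at 12 h departed from the untreated one in a test of that change, and because no used probe lay at the floor on the 12 h arrays, unlike the other 16 miRNAs that passed. It lay at -3.57 and -3.43 in knockout cells and at -2.94 and -2.99 in wild type cells after 12 h, a difference of -0.53 ± 0.24 that did not pass by itself. In untreated cells the difference was -1.91, so the change between conditions was 1.38 (limma, adjusted p = 0.049). It rests on 1 used probe, which was well above background on 3 of the 4 arrays, all but knockout replicate 2. The difference at 24 h was -1.06. Before scaling, the 12 h intensity of miR-129-3p was 40.6 in knockout and 73.9 in wild type cells in run 3. In run 4 the order was reversed, at 53.0 and 42.4. No miRNA passed the test against the untreated difference when arrays were scaled on all probes, quantile normalized or corrected with normexp. The untreated arrays were also on another slide and in other scanning runs.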

How the results depend on the processing

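Of 246 values of the 13 called miRNAs under 20 alternatives, 97 kept direction and call, 139 kept direction and lost the call, and 10 changed sign. The cause was not tested unless named. The 13 calls (6 higher, 7 lower) became 0 in each of 5 settings, namely scaling on all probes, quantile normalization, normexp, summed signal and deposited table (0, 2, 3, 12 and 8 in limma at an unadjusted p under 0.05). They became 4 with no filter on dim probes, where more miRNAs were tested, and 1 (miR-23b) over probes well above background on all 4 arrays, where fewer were. They were 4 with the tunicamycin groups only, 5 with a replicate block in those groups, 0 with the compared groups only (19 at an unadjusted p under 0.05), 1 (miR-10a) when centred on the measured miRNAs and 5 with that centring and a replicate block. With a replicate block in all groups they were 19, and apart from the miRNAs named beside that count it changed no other call. Without 1 array the count lay between 6 and 35. The 17 differences from the untreated condition became 0 for the deposited table, for normexp, for quantile normalization, for scaling on all probes, over probes well above background on all 4 arrays and when centred, 2 with the summed signal, 6 with the floor halved and 1 with centring and a replicate block, and lay between 10 and 34 without 1 array. The 0 differences from 24 h became 2 with the floor doubled and 2 with centring and a replicate block, and lay between 0 and 8 without 1 array. The 89 miRNAs of 1 sign in both runs became 42 when scaled on all probes, 41 of only 92 miRNAs in the deposited table and 36 of only 67 over probes well above background on all 4 arrays. The median of all differences, -0.01, was -0.12 with all probes setting the scale, against 0.31 for the authors' deposited values, a table that is unscaled and lists detected miRNAs only, and the share of differences below 0 was 28.3% there and 50.3% in the main setting. Signs turned when scaled on all probes for miR-29b (-0.023), miR-24 (-0.20), miR-15a (-0.029), miR-21 (-0.11), miR-199a-3p (-0.25), miR-22 (-0.26) and miR-125b-5p (-0.26), with quantile normalization for miR-24 (-0.19), miR-199a-3p (-0.24) and miR-22 (-0.011), with normexp for miR-24 (-0.092) and miR-199a-3p (-0.18), and with the brightest used probe for miR-199a-3p (-0.13). With the summed signal they turned for miR-10b (-0.55), miR-130b (-1.43), miR-378 (-0.26), miR-96 (0.39), miR-300 (0.087), miR-99b (0.87), miR-24 (-0.040), miR-34c (0.39), miR-301a (-0.0035), miR-199a-3p (-0.17), miR-22 (-0.092) and miR-125b-5p (-0.051). In the deposited table they turned for miR-10b (-0.15), miR-130b (-2.96), miR-378 (-0.62), miR-155 (0.37), miR-96 (0.79), miR-322 (0.20), let-7b (0.097), miR-127 (0.0022), miR-300 (0.49), miR-541 (2.15), miR-99b (1.27), miR-23a (0.12), miR-27a (0.16), miR-34c (0.79), miR-130a (0.14), miR-720 (0.21) and miR-379 (0.36). Without 1 array, miR-24 lay between -0.26 and 0.40, miR-15a between -0.18 and 0.67, miR-16 between -0.10 and 0.50, miR-21 between -0.12 and 0.45, miR-125b-5p between -0.26 and 0.29, miR-23a between -0.36 and 0.047, miR-27a between -0.45 and 0.30, miR-34c between -0.68 and 0.14, miR-22 between -0.37 and 0.39, miR-199a-3p between -0.22 and 0.25, miR-720 between -0.35 and 0.23 and miR-130a between -0.41 and 0.14. Signal over background limits 115 of the 175 tested miRNAs, which were not measured on all 4 arrays.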

Other observations

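Some miRNAs were seen on arrays of 1 genotype only. At 12 h, 8 mouse miRNAs were well above background on knockout arrays only and 21 on wild type arrays only. On both arrays of 1 genotype and neither of the other, the counts were 0 for knockout cells and 2 for wild type cells, and those in wild type cells were miR-10a and miR-196a. The 1 viral probe set that was bright enough to test, mghv-miR-M1-2, lay at the floor in run 3 in both genotypes, and in run 4 at -1.92 in knockout cells and -2.36 in wild type cells.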
